A study of Bombyx mori with 3 samples.

Results

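Cytosolic ribosomal proteins are the protein parts of the ribosomes that translate the mRNAs of the nucleus. They were examined in the larval midgut of the silkworm Bombyx mori after feeding on leaves treated with phoxim, an organophosphate insecticide that inhibits acetylcholinesterase. The members were the gene probes above the signal flag on all 3 arrays whose description names a ribosomal protein. Descriptions with the words mitochondrial or kinase, or with the names L7/L12, S33 or S34, were left out, as was the single probe sw09737. Each gene was represented by its brightest probe. This gave 75 genes measured by 80 probes, 45 of the large and 30 of the small subunit, out of 3888 genes and 3964 gene probes above the flag on all arrays and 23229 gene probes on the array. The 13 members without a gene identifier were each counted as a gene, and the 75 carry 67 protein names. Whether those 13 are separate from the genes with an identifier was not tested.

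Phoxim larvae of strain P50 ate mulberry leaves dipped for 1 min in phoxim at 4 µg/mL, and control larvae of the same strain ate leaves dipped in water, per the labels. Feeding took place on day 3 of larval instar 5, midguts were dissected 24 h later, and each experiment used 30 larvae. Each of 3 arrays carried phoxim RNA in 1 colour and control RNA in the other, and the design text calls the arrays biological replicates. The labels do not say how the larvae of an experiment were divided between phoxim and control or pooled for RNA. Each ratio sets phoxim over control in the direction of the array's header, on a log2 scale, so that a negative value means a deposited ratio below 1 after phoxim. This ratio differs from the quotient of the deposited intensities and had the opposite direction for 14, 21 and 18 of the 75 members on replicates 1, 2 and 3. For replicate 2 the header puts phoxim in Cy3 and the labels put it in Cy5, so its direction rests on the header. In the header's direction its log2 ratios had a Pearson r of 0.62 with replicate 1 over the 3964 gene probes above the flag. Turned to the labels, this value changes sign.

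A cytosolic ribosome has a large subunit, which joins amino acids and releases the growing chain through an exit tunnel, and a small subunit, which holds the mRNA and reads its codons. Each subunit is built from ribosomal RNA and a fixed set of proteins, so the genes of these proteins are usually transcribed at matched rates. The midgut of a feeding larva makes and secretes large amounts of digestive enzymes, and its protein output depends on its ribosomes. Transcripts of ribosomal proteins are among the most abundant of most animal cells. In insects and other animals their output follows growth signals, among them the target of rapamycin pathway, and in yeast it falls under stress.

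The tissue label was checked against markers. Of 144 probes whose descriptions name midgut proteins such as trypsins, aminopeptidases and V-ATPase subunits, 58 genes were measured, and none of the 12 silk gland probes was above the flag on all arrays. The midgut markers had a median mean ratio of 0.07 and summed intensities of 609579 to 797282 in phoxim midguts against 557111 to 763383 in control midguts. At an adjusted p under 0.05 in limma 3 of the 58 were higher and 1 lower, against 0.681% of all gene probes above the flag. Fat body markers, with 20 genes measured of 39 probes, had a median mean ratio of 1.89 and a summed intensity of 145950 to 364501 in phoxim midguts against 130430 to 145205 in control midguts. Their median was 2.00, 1.54 and 1.67 on replicates 1, 2 and 3 in the direction of the headers. At the same threshold 10 of the 20 were higher and 0 lower. Muscle markers, with 32 genes measured of 105 probes, had a median mean ratio of 0.54 and sums of 154082 to 194782 in phoxim midguts against 112604 to 141423 in control midguts. Haemocyte markers, with 6 genes measured of 52 probes and 1 probe at 0 on all arrays, had a median of 0.46 and sums of 10827 to 13112 in phoxim midguts against 7938 to 11186 in control midguts. The part of these tissues in the ribosomal protein values was not tested, and fewer cells of a type and less RNA per cell cannot be told apart in whole tissue.

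The members, which the flag selects for signal, were brighter at the median than all kept gene probes. The median intensity over the 75 genes was 15619, 11991 and 13927 in phoxim midguts on replicates 1, 2 and 3, against 12751, 17881 and 14387 in control midguts. Over all kept gene probes the medians were 1074.5 to 1272 in phoxim midguts and 1123.5 to 1159 in control midguts. Single genes ran from 361 to 55064 in phoxim midguts and from 514 to 60875 in control midguts, in arbitrary units before normalization. No member lay under the 95th percentile of the negative control spots in any channel, and none was saturated. Intensity is used here only to judge how well a probe was measured, since probes also differ in how strongly they bind their target.

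No ribosomal protein gene passed the test. Across the 3 arrays, 0 of 75 members had an adjusted p under 0.05 (limma, Benjamini-Hochberg over all 3964 kept probes), while 27 of the kept probes did, a background of 0.681%. A count of 0 among 75 is near that share, so it does not set the members apart from other probes. At an unadjusted p under 0.05 in limma there were 4 members, all lower after phoxim, which is 5.33% of the members against a background of 15.2% for both directions, 4.54% for lower probes and 10.7% for higher probes. With array quality weights, which weight replicate 2 most, limma called 4 of the 75 members, all lower (LOC692972, sw17541, sw17543 and Rps16). The same setting called 746 of the 3964 kept probes, a larger share than among the members. Without weights the smallest adjusted p was 0.207 among large subunit genes and 0.291 among small subunit genes (limma). The limma 95% interval of the mean ratio lay within a 2-fold change in either direction for 75 of 75 members, against 84.5% of all kept probes. The lowest bound of any member was -0.91 and the highest 0.69 on the log2 scale. Intervals within a 1.5-fold change were reached by 30 of 45 large subunit genes and 18 of 30 small subunit genes, 48 members in all, against 36.7% of all kept probes.

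**Figure D1:**
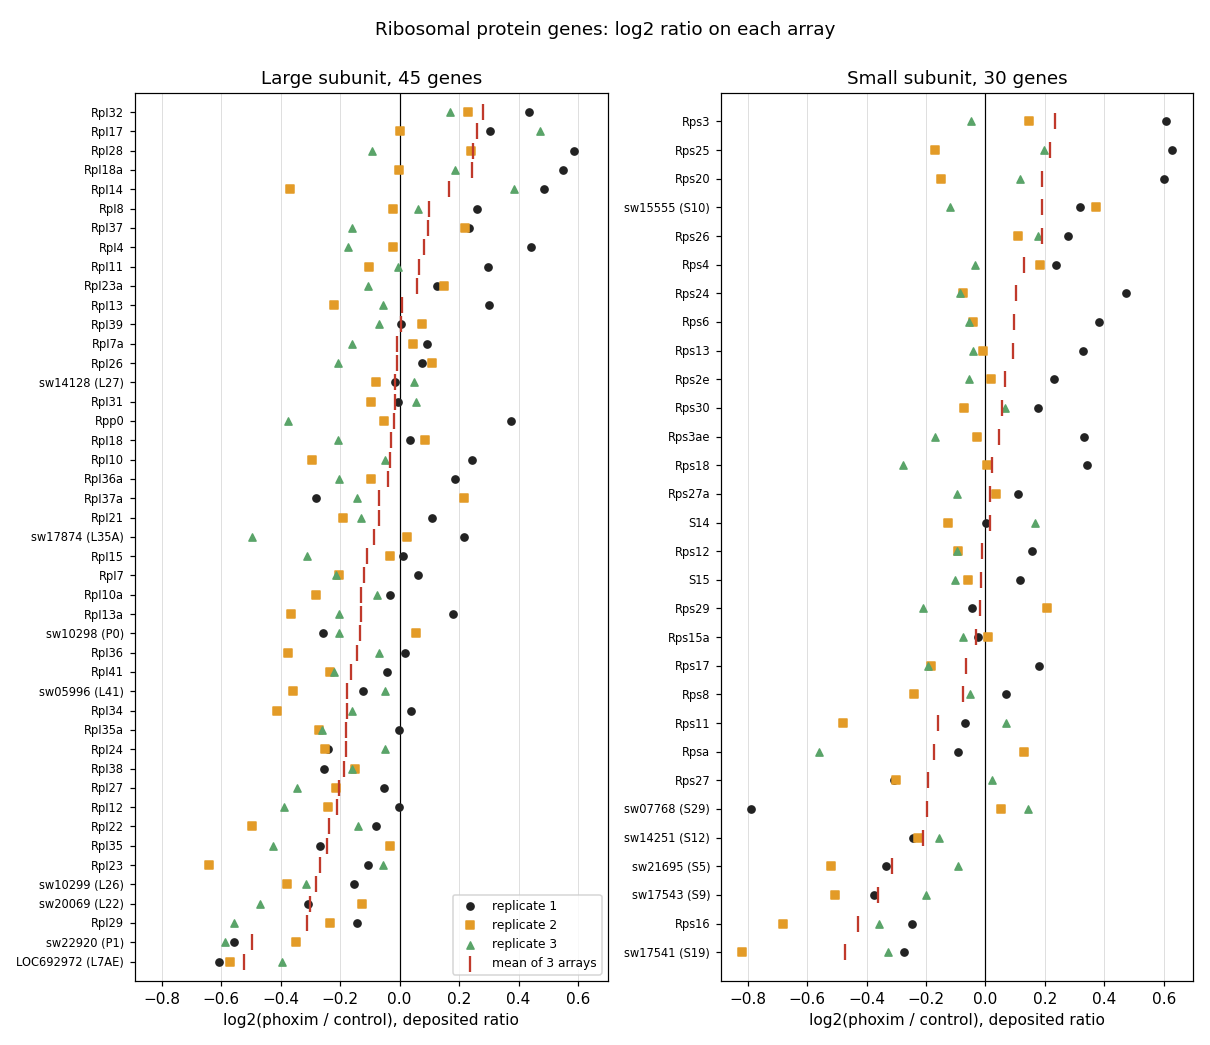
Log2 ratio of phoxim over control for each ribosomal protein gene (horizontal axis) on replicates 1 (black circles), 2 (orange squares) and 3 (green triangles), with the mean of 3 arrays as a red bar and genes in order of that mean. Means run from -0.52 for LOC692972 to 0.28 for Rpl32 in the large subunit and from -0.47 for the S19 probe sw17541 to 0.23 for Rps3 in the small subunit.

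The members varied less than other probes. The SD of the log2 ratio over the 75 genes was 0.29, 0.24 and 0.20 on replicates 1, 2 and 3. Among the 1589 kept gene probes at the higher flag level on all arrays, which is an intensity of about 1500 in the brighter channel, it was 0.66, 0.51 and 0.44. A ratio within 1.5-fold was found for 69, 72 and 74 of the 75 members on the 3 arrays, or 92%, 96% and 98.67%. The same held for 70.42%, 80.3% and 86.53% of the probes at the higher flag level. The authors' deposited table marks 4 members as higher at 1.5-fold on replicate 1 (Rps20, Rps25, Rpl28 and Rps3), and none on the other arrays. It marks as lower LOC692972 and the S29 probe sw07768 on replicate 1, Rpl23, the S19 probe sw17541 and Rps16 on replicate 2, and the P1 probe sw22920 on replicate 3, and no member carries its mark for 2-fold. No member carried a mark on more than 1 array, per the authors' deposited table.

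As a group the members stood near 0, and the large subunit lay lower than the small. The median log2 ratio of the 45 large subunit genes was 0.02 on replicate 1, -0.13 on replicate 2 and -0.16 on replicate 3, a mean of -0.09 ± 0.09 (SD over arrays, n = 3). The median of the 30 small subunit genes was 0.14, -0.06 and -0.08 on the same arrays, a mean of -0.003 ± 0.121 (SD over arrays, n = 3). Large minus small was negative on each array, at -0.12, -0.06 and -0.08, a mean of -0.09 ± 0.03 (SD over arrays, n = 3). With replicate 2 turned to the dyes that the labels state, the difference was 0.06 on replicate 2 and its mean -0.05 ± 0.09 (SD over arrays, n = 3). No test of this difference was made, because genes of a subunit are not replicates and 3 arrays do not allow an exact test to reach 0.05.

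Both subunits lay below the other bright probes on replicates 2 and 3, and with replicate 2 turned to the labels' dyes this order is reversed on that array. The kept probes at the higher flag level had medians of 0.08, 0.10 and 0.08 on replicates 1, 2 and 3, and all kept probes had medians of 0.05, 0.05 and 0.04. Ratios above 0 were found for 25, 12 and 7 of the 45 large subunit genes and for 19, 11 and 8 of the 30 small subunit genes on the 3 arrays. The mean ratio was negative for 33 large and 15 small subunit genes, together 64% of the members against 45.46% of all kept probes. Lower on all 3 arrays were 16 large and 5 small subunit genes, 21 members in all, against a background of 14.3%. Higher on all 3 arrays were 2 large subunit genes (Rpl17 and Rpl32) and 1 small subunit gene (Rps26), against a background of 23%.

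**Figure D2:**
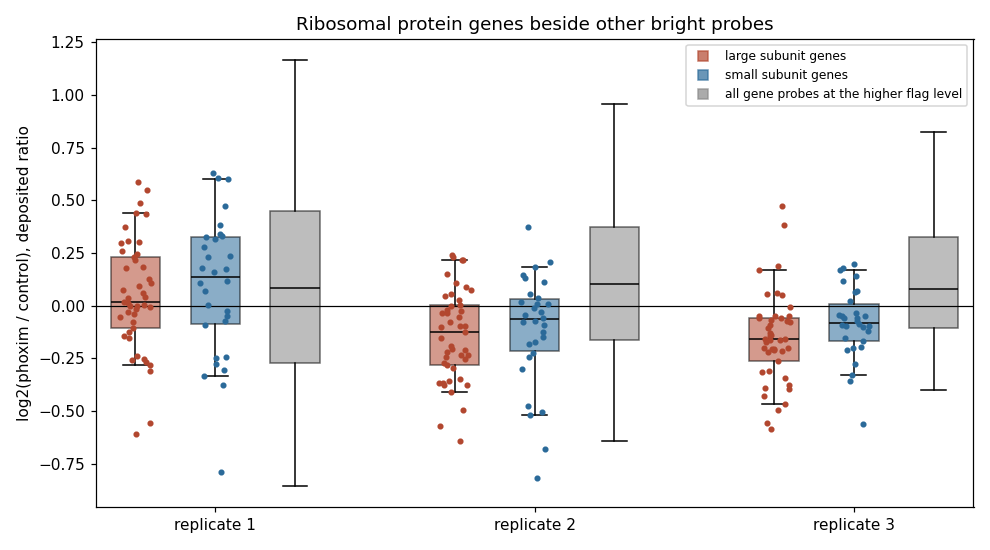
Log2 ratio of phoxim over control (vertical axis) by array for large subunit genes (red, n = 45), small subunit genes (blue, n = 30) and all kept gene probes at the higher flag level (grey, n = 1589). Boxes span the quartiles with the median as a line, whiskers run from the 5th to the 95th percentile, and points are single genes. The ribosomal protein boxes are narrower than the grey boxes on each array, and the large subunit median is below the small subunit median on each.

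The stalk is the flexible arm of the large subunit that recruits the elongation factors. It is formed by P0, which anchors it, the acidic proteins P1 and P2, which carry the factor-binding tails, and L12 at its base. P1 was measured by the probe sw22920, with intensities of 665, 969 and 689 in phoxim midguts against 1107, 968 and 1245 in control midguts. Its log2 ratio was -0.56, -0.35 and -0.59 on replicates 1, 2 and 3, lower on each array by a mean of -0.50 ± 0.13 (SD, n = 3), and it did not pass (adjusted p = 0.228, limma). Rpp0, the P0 gene, changed sign between arrays, with ratios of 0.37, -0.05 and -0.38 and a mean of -0.02 ± 0.38 (SD over 3 arrays, limma adjusted p = 0.974). A second probe, sw10298, has no gene identifier, and its best match is a predicted P0-like protein of Canis familiaris, so its name is uncertain. It had ratios of -0.26, 0.06 and -0.20 at intensities of 755 to 1034 in phoxim midguts and 897 to 951 in control midguts. Rpl12 had ratios of -0.003, -0.24 and -0.39. All 4 stalk genes, with sw10298 counted as 1 of them, had a negative mean, as did 73.33% of all large subunit genes. The stalk median was -0.13, -0.15 and -0.38 on the 3 arrays. P2 was not among the members.

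The proteins around the exit tunnel had the mean of medians nearest 0 among the large subunit groups, at -0.04. This group held 8 genes, with medians of 0.04, -0.01 and -0.14 on replicates 1, 2 and 3. Rpl4 and Rpl17 reach into the tunnel wall, and Rpl23a sits at its rim, where factors that receive the new chain dock. Rpl17 was higher on all arrays, with ratios of 0.30, 0.001 and 0.47 and a mean of 0.26 ± 0.24 (SD over 3 arrays, limma adjusted p = 0.481). Its value on replicate 2 is at 0 to 2 decimals, so that its single sign rests on the other arrays. Rpl4 had ratios of 0.44, -0.02 and -0.17, and Rpl23a had 0.13, 0.15 and -0.10. The L26 gene sw10299 was lower on all arrays, at -0.15, -0.38 and -0.31, a mean of -0.28 ± 0.12 (SD over 3 arrays, limma adjusted p = 0.421). The brighter L26 member, Rpl26, had 0.08, 0.11 and -0.21, so that the pair did not share a pattern.

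Proteins of the face toward the small subunit and of the peptidyl transferase side were negative on replicate 2 in all 8 genes. On that array only 12 of the 45 large subunit genes were above 0, against 2171 of the 3964 kept probes. With replicate 2 turned to the labels' dyes these signs reverse. The group's median was 0.07, -0.24 and -0.05 on replicates 1, 2 and 3. Lower on all arrays were 4 of its genes, against 16 of the 45 large subunit genes. Rpl23 had ratios of -0.11, -0.64 and -0.06, the second of which is the lowest large subunit value on replicate 2. Rpl24, which makes a bridge to the small subunit, had intensities of 32966, 23676 and 30626 in phoxim midguts against 30478, 36932 and 33921 in control midguts. Its ratios were -0.24, -0.25 and -0.05, with a mean of -0.18 ± 0.11 (SD over 3 arrays, limma adjusted p = 0.593). Rpl10, which joins late in assembly and completes the catalytic site, had ratios of 0.24, -0.29 and -0.05 and a mean of -0.03 ± 0.27 (SD, n = 3). Rpl8, which lies close to the catalytic site, had 0.26, -0.02 and 0.06.

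The other 25 large subunit genes had medians of 0.03, -0.19 and -0.16 on replicates 1, 2 and 3. The lowest mean of any member belonged to LOC692972, which the files describe as an L7Ae protein, a family that binds kinked RNA helices. Its intensities were 492, 643 and 628 in phoxim midguts against 664, 978 and 775 in control midguts. The ratios were -0.61, -0.57 and -0.40, lower on each array with a mean of -0.52 ± 0.11 (SD over 3 arrays, limma adjusted p = 0.207). Its limma 95% interval ran from -0.90 to -0.15. The best protein match in the files for this probe is a zinc finger protein, so its name is uncertain.

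Rpl29, a small basic protein, had ratios of -0.14, -0.23 and -0.56 and a mean of -0.31 ± 0.22 (SD over 3 arrays, limma adjusted p = 0.407). The L22 gene sw20069 had ratios of -0.31, -0.13 and -0.47, a mean of -0.30 ± 0.17 (SD over 3 arrays, limma adjusted p = 0.408). Both were lower on each array. The mean intensity of Rpl29 was 12850 in phoxim midguts against 15980 in control midguts, and that of sw20069 was 1037 in phoxim midguts against 1207 in control midguts. At the other end Rpl32, which is often used as a reference gene in insect expression studies, had intensities of 17754, 11991 and 16031 in phoxim midguts against 11248, 17072 and 14387 in control midguts. Its ratios were 0.44, 0.23 and 0.17, the highest mean of any member at 0.28 ± 0.14 (SD, n = 3), and it did not pass (adjusted p = 0.430, limma). Its limma 95% interval ran from -0.10 to 0.66, and its mean was 0.06 from the intensities with loess, 0.08 from the plain quotient and 0.13 with replicate 2 turned. Among the brighter probes, Rpl15 had a mean of -0.11 ± 0.18 and Rpl36 one of -0.14 ± 0.21 (SD, n = 3). Rpl14 moved most between arrays in this group, with ratios of 0.48, -0.37 and 0.38.

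In the small subunit the head turns during each step along the mRNA, and the body and platform hold the decoding site and the mRNA path. The 15 head genes had medians of 0.12, -0.09 and -0.10 on replicates 1, 2 and 3 and spread widely on the first, with SDs over genes of 0.40, 0.32 and 0.16. The 15 body and platform genes had medians of 0.18, -0.04 and -0.05 and SDs of 0.25, 0.21 and 0.18. Lower on all arrays were 4 head genes and 1 body gene. Each of the small subunit values past 1.5-fold on a single array belonged to a head gene.

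The S19 gene sw17541, coding a head protein needed for maturation of the small subunit in yeast and human cells, had intensities of 705, 773 and 718 in phoxim midguts against 851, 1243 and 981 in control midguts. Its ratios were -0.28, -0.82 and -0.33, with a mean of -0.47 ± 0.30 (SD over 3 arrays, limma adjusted p = 0.291). Rps16, whose protein touches the tRNA in the peptidyl site, had intensities of 23719, 16268 and 24145 in phoxim midguts against 21144, 29045 and 22872 in control midguts. The deposited ratios were -0.25, -0.68 and -0.36, below 0 also on replicates 1 and 3, where the phoxim intensity was the higher one, with a mean of -0.43 ± 0.22 (SD over 3 arrays, limma adjusted p = 0.309). Both were lower on every array and lowest on replicate 2, the array whose dyes the sources give differently. With that array turned, their means were 0.07 for sw17541 and 0.02 for Rps16. Rps16 was the only member at the higher flag level with an unadjusted p under 0.05 in limma.

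The S5 gene sw21695, for a protein beside the mRNA exit, had ratios of -0.34, -0.52 and -0.09 and a mean of -0.32 ± 0.21 (SD over 3 arrays, limma adjusted p = 0.402). The S12 gene sw14251, for a protein of the head's beak, had -0.24, -0.23 and -0.16, a mean of -0.21 ± 0.05 (SD over 3 arrays, limma adjusted p = 0.517). The other S12 member, Rps12, had 0.16, -0.09 and -0.10, so only 1 of the pair held a single sign. The 3 head genes that the authors' deposited table marks as higher on replicate 1, Rps3, Rps25 and Rps20, carry no such mark on the others. Rps3, at the mRNA entry, had intensities of 55064, 43523 and 50965 in phoxim midguts against 39923, 50436 and 60875 in control midguts. Its ratios were 0.61, 0.14 and -0.05, with the highest mean of the small subunit at 0.23 ± 0.34 (SD over 3 arrays, limma adjusted p = 0.551). Rps25, which in yeast and human cells helps viral RNAs to start translation, had 0.63, -0.17 and 0.20 (mean 0.22 ± 0.40, SD, n = 3). Rps20 had 0.60, -0.15 and 0.12. The reverse was seen for the S29 gene sw07768, at -0.79 on replicate 1 and 0.05 and 0.14 on the others.

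In the body and platform, the S9 gene sw17543, for a protein that bears on decoding accuracy in yeast, was the only one lower on all arrays. Its intensities of 361, 633 and 435 in phoxim midguts and 514, 697 and 629 in control midguts were weak signals. The ratios were -0.37, -0.51 and -0.20, a mean of -0.36 ± 0.15 (SD over 3 arrays, limma adjusted p = 0.342). Rps26, which lines the mRNA exit channel, was the only small subunit gene higher on all arrays, with ratios of 0.28, 0.11 and 0.18 and a mean of 0.19 ± 0.08 (SD over 3 arrays, limma adjusted p = 0.566). Rps6, the protein phosphorylated by the S6 kinase downstream of growth signals, had 0.38, -0.04 and -0.06 and a mean of 0.09 ± 0.25 (SD over 3 arrays, limma adjusted p = 0.815). Rps2e at the mRNA entry and S14 of the platform, both brightly measured, had means of 0.06 ± 0.15 and 0.01 ± 0.15 (SD, n = 3).

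Rps27a is made as a fusion with ubiquitin, and its probe's best match in the files is a polyubiquitin, and binding of other ubiquitin transcripts to this probe was not tested. Its intensities were 33404, 31787 and 31432 in phoxim midguts against 41711, 46937 and 43468 in control midguts. The deposited ratios were 0.11, 0.04 and -0.10, a mean of 0.02 ± 0.10 (SD over 3 arrays, limma adjusted p = 0.971). Lower intensities on each array therefore stand beside a ratio near 0, and the cause of that gap was not tested. From the intensities with loess its mean was -0.50. The ubiquitin fusion L40 and the scaffold RACK1 were not among the members.

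The means of the named members depended on the normalization and on the direction of replicate 2. From the intensities with loess, 7 of the 26 named members turned sign, all of them positive by the deposited ratio: Rps27a, Rps2e (-0.32), Rps6 (-0.24), S14 (-0.24), Rpl23a (-0.20), Rps25 (-0.08) and Rps3 (-0.06). The genes higher on all arrays came close to 0 with loess, at 0.0015 for Rpl17, 0.06 for Rpl32 and 0.06 for Rps26. The means of LOC692972 (-0.41), sw22920 (-0.51) and sw17543 (-0.34) stayed negative there.

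With replicate 2 turned to the labels' dyes, 8 of the 26 turned sign. These were sw17541, Rps16, the S5 gene sw21695 (0.03), Rpl36 (0.11), Rpl10 (0.16), Rpp0 (0.02), Rpl23a (-0.04) and Rps27a (-0.01). Other members with low means came nearer 0, at -0.15 for LOC692972, -0.26 for sw22920, -0.16 for Rpl29, -0.03 for sw10299, -0.01 for Rpl24, -0.02 for sw17543 and -0.06 for sw14251. None of the 26 passed the limma threshold under either setting.

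Members with weak signals had lower ratios than the rest. The 7 genes under the higher flag level on some array (LOC692972, sw22920, sw20069, sw10298, sw17541, sw17543 and sw07768) had medians of -0.37, -0.35 and -0.33 on replicates 1, 2 and 3. The 68 others had medians of 0.10, -0.09 and -0.10. All 7 had a negative mean and 5 were lower on all arrays, and 3 of the 4 members with an unadjusted p under 0.05 in limma were among them. Over all kept probes under the higher level (n = 2375) the medians were 0.03, 0.004 and 0.005, above those of the weak members on each array. Of those 2375 probes, 49.77% had a negative mean and 375 were lower on all arrays. Across the 75 members the mean ratio and the log of brightness had a Pearson r of 0.57 and a Spearman rho of 0.45, against 0.18 and 0.16 across all kept probes. These are correlations across genes on shared arrays, and both measures come from the same channels.

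**Figure D3:**
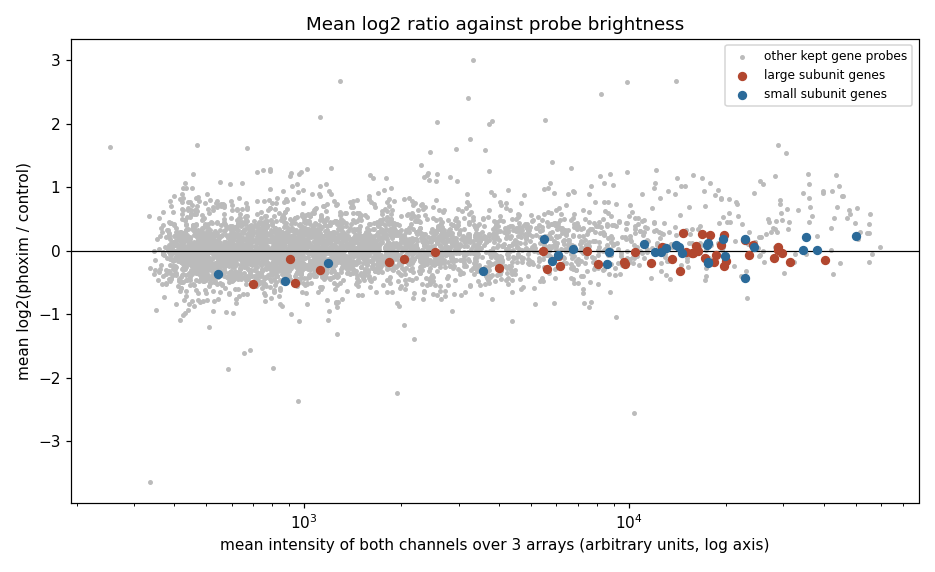
Mean log2 ratio of phoxim over control over 3 arrays (vertical axis) against the mean intensity of both channels (horizontal log axis, arbitrary units) for large subunit genes (red, n = 45), small subunit genes (blue, n = 30) and all other kept gene probes (grey). The ribosomal protein genes lie in a narrow band around 0 at high intensity, and the 7 members with the weakest signals all lie below 0.

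The weak members overlapped with those that have no gene identifier in the files. The best protein match of these 13 genes is a Bombyx mori protein for P1 (sw22920), L22 (sw20069), L41 (sw05996) and L27 (sw14128), and a protein of another species for the others. They had medians of -0.26, -0.23 and -0.20 on replicates 1, 2 and 3, 12 of 13 had a negative mean and 8 were lower on all arrays. Of the 62 members with an identifier, 36 had a negative mean and 13 were lower on all arrays. Over all kept probes these shares were 45.46% and 14.3%. The S10 gene sw15555 was the exception, at 0.32, 0.37 and -0.12. The 62 genes with an identifier, all found in the RefSeq gene table of assembly ASM3026992v2, had medians of 0.11, -0.08 and -0.10. The part of signal strength in these values was not tested.

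Repeated measurements of a protein give the scale of probe-to-probe error. Of the members, 5 genes had a second probe, and the mean ratios of the 2 probes differed by 0.03 to 0.31, with a median gap of 0.11. The largest gap was that of Rpl29, whose brighter probe had a mean of -0.31 and whose dimmer probe had -0.01. For Rpl17 the probes gave 0.26 and 0.23, and both were above 0 on each array. A further 8 protein names had 2 genes each (L22, L26, L27, L35A, L41, P0, S12 and S29), with gaps of 0.01 to 0.27 and a median of 0.15. The dimmer gene was the lower one in 6 of these 8 pairs, and the dimmer probe in 2 of the 5 pairs within a gene.

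**Figure D4:**
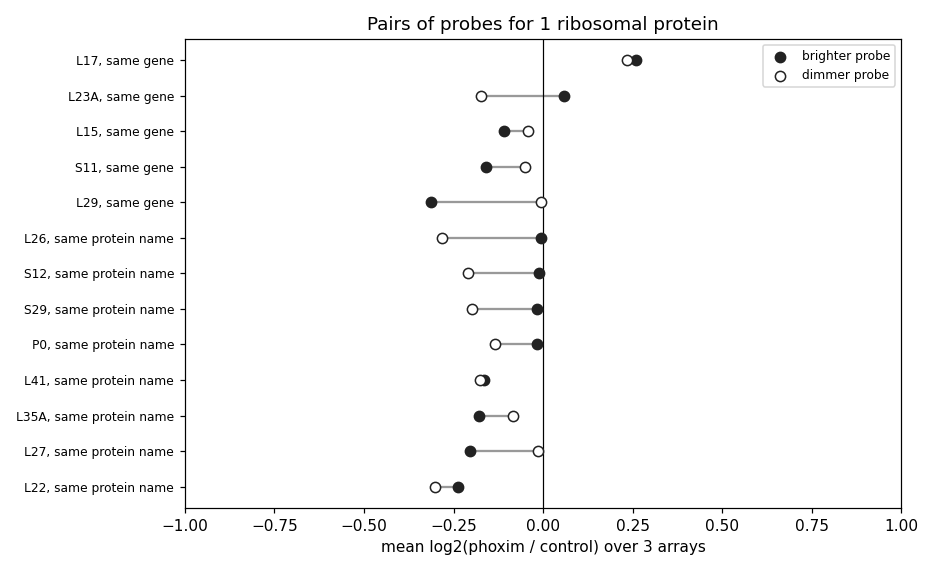
Mean log2 ratio of phoxim over control over 3 arrays (horizontal axis) for the 13 pairs of probes of 1 ribosomal protein, 5 within a gene and 8 between members of 1 protein name, with the brighter probe filled and the dimmer open. No pair differed by more than 0.31.

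The order of the genes was only partly shared between arrays. Over the 75 members the Pearson r of the log2 ratios was 0.42 between replicates 1 and 2, 0.42 between 1 and 3, and 0.15 between 2 and 3. For all kept probes the values were 0.62, 0.18 and 0.26. Among large subunit genes the closest arrays were 1 and 3 (r = 0.55) and among small subunit genes 1 and 2 (r = 0.45). Replicates 1 and 3 share the dye orientation that the headers give, and dye and array cannot be told apart with 1 array in the other orientation. These correlations are across genes, which are not independent replicates. The median SD over arrays was 0.19 for the members and 0.29 for all kept probes.

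The subunit medians moved with the normalization more than with any single array. From the intensities plus 50 with loess the large subunit median was -0.22 and the small subunit median -0.16, and from the plain quotient centred on each array they were -0.22 and -0.14. The plain quotient gave -0.64 for the large and -0.60 for the small subunit on replicate 2 alone, where the other bright probes stood at -0.18. The medians were not recomputed with array weights, a variance trend or a dye term. The large subunit median stayed below 0 under every other setting and was nearest 0 with replicate 2 turned, at -0.01. The small subunit median turned positive in some, at 0.03 without replicate 2 and 0.04 without replicate 3. The large subunit lay below the small in the mean over arrays under each of these other settings, with a difference of -0.05 to -0.10.

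**Figure D5:**
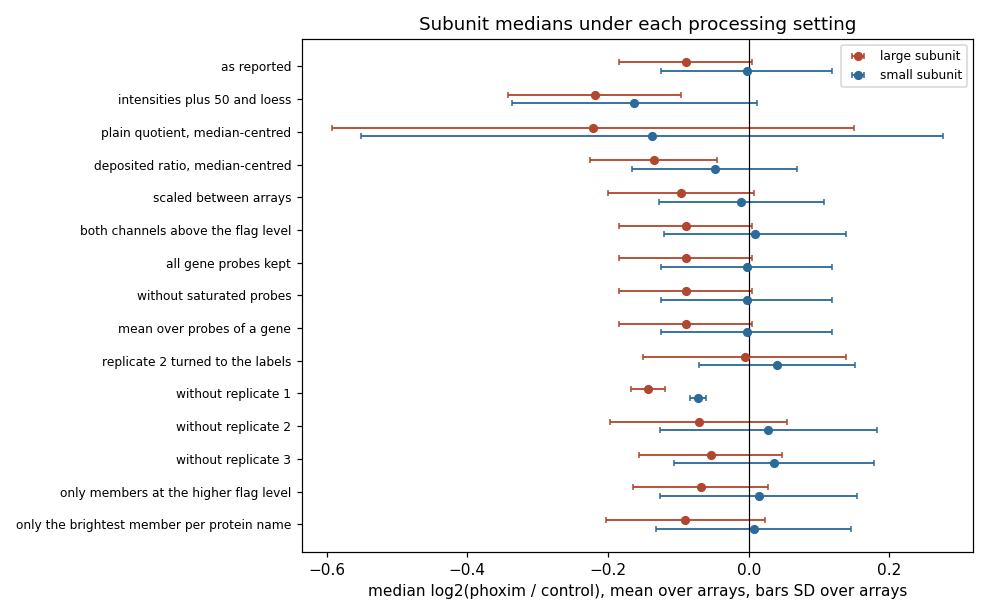
Median log2 ratio of phoxim over control, as the mean over arrays with bars of 1 SD over arrays (horizontal axis), for large (red) and small (blue) subunit genes under each processing setting. The large subunit point lies left of the small subunit point at each setting, and most bars reach 0.

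Of the 144 gene probes whose text names a ribosomal protein, 118 were above the flag on all arrays and 38 of these were left out by the rule. A further 15 cytosolic probes fell under the flag on at least 1 array and 13 of them on all, with intensities of 0 to 468. For 8 of the 15 another probe measured the same protein. The others name S7, L30, S23, L9, L5 and L3, with 1 more described only as putative, and these proteins are not analysed here. The flag asks for signal in the brighter channel and not for a difference between the channels.

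Other parts of the translation machinery also had no gene past the threshold. Over all kept probes 27 of 3964 passed, or 0.681%, so a count of 0 in lists this small is near that share. Mitochondrial ribosomal proteins, encoded in the nucleus and used inside the organelle, had 33 genes measured and 0 called in either direction in limma. Their median mean ratio was -0.21, with 31 of 33 below 0, against 45.46% of all kept probes. The list's median was -0.29, -0.08 and -0.25 on the 3 arrays. The exception with the smallest p was Rpl2, described as the mitochondrial L2 protein, at 1.11, 0.70 and 0.50 (adjusted p = 0.133, limma). Ribosome assembly and nucleolar factors had 14 genes, 0 called and a median of -0.05. Elongation and initiation factors, a word list that also caught a TATA-box-binding protein and a subunit of TFIID, had 27 genes, 0 called and a median of -0.04. The smallest p of these belonged to LOC692936, a subunit of the initiation factor eIF3, at -1.07, -0.80 and -0.46 (adjusted p = 0.127, limma). Ribosome-associated factors had 6 genes, 0 called and a median of 0.14. This word list ran from the nascent polypeptide-associated complex and ribosome receptor to recycling factors, S6 kinase and target of rapamycin. The smallest p was that of the alpha subunit of the nascent polypeptide-associated complex, LOC732899, at -0.98, -0.71 and -0.32 (adjusted p = 0.179, limma). All kept probes had a median mean ratio of 0.03.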

How the data were processed

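RNA of phoxim and control midguts was compared on 3 two-colour arrays. Per the file headers, each spot of the deposited files has a linear intensity for Cy5 and for Cy3 and a phoxim/control ratio, and the deposited value table holds log2 values equal to the log2 of that ratio to within 4.9e-09. This ratio differs from the quotient of the intensities, so it was taken as normalized within the array by the authors. Its method is not given in the sources used here, nor is the scanner. The labels name Cy5 for phoxim on every array, while the header of replicate 2 puts it in Cy3; the headers were followed, and the other direction is an alternative.

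The planned normexp correction needs separate backgrounds, so the analysis started from the deposited ratio, as the plan allowed. Control spots were left out. A probe was kept if its brighter channel reached 400 on all 3 arrays, the flag level found in the files, with a higher level at 1500. Log2 ratios were tested with limma 3.58.1 in R 4.3.3 (lmFit on an intercept, eBayes, two-sided), with Benjamini-Hochberg adjustment over 3964 probes and a threshold of 0.05, after a test on simulated data. Subunit medians are descriptions with no test. The members and lists were chosen with earlier results of these data known. Named were, per subunit, the 5 highest and 5 lowest mean ratios among members with 1 sign on all arrays and the 5 with the brightest control channel, with stalk proteins, ubiquitin fusions, RACK1 and S6. This gave 26 members; others were named after their values were seen. Brightness classes and 1 gene per protein name were alternatives chosen after seeing the data. Of the members, 62 had a gene identifier, all in RefSeq's table of assembly ASM3026992v2, where 4 symbols differ. The number of arrays limits the precision.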

Additional observations from a re-analysis of the deposited data

Results flagged for a closer look

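Probes of 2 further ribosomal proteins serve as positive control spots on the array, with 49 spots each, and were outside the comparisons because control spots were left out. They are singled out because they hold signal in data that the comparisons did not use. Rpl19, of the large subunit, had mean log2 ratios over its spots of 0.62, -0.02 and -0.09 on replicates 1, 2 and 3, a mean of 0.172 ± 0.392 (SD over arrays, n = 3). On replicate 1 all 49 spots were above 0, a 1.54-fold mean ratio, with median intensities of 25894 in phoxim midguts against 15855 in control midguts. The SD between its spots on an array was 0.15 to 0.20, which covers technical error within an array only. Rpl27a, also of the large subunit, had -0.07, -0.09 and -0.13, a mean of -0.094 ± 0.030 (SD over arrays, n = 3), with an SD between spots of 0.14 to 0.17. The large subunit members had medians of 0.02, -0.13 and -0.16 on the same arrays.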

How the results depend on the processing

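The count of members called was 0 under every alternative run but 1: with array quality weights from limma (0.7, 3.11 and 0.459 for replicates 1, 2 and 3) it was 4, all lower after phoxim, namely LOC692972 (adjusted p = 0.0247), sw17541 (adjusted p = 0.0235), sw17543 (adjusted p = 0.0455) and Rps16 (adjusted p = 0.0304). That setting called 746 of the 3964 kept probes, a larger share than the 4 of 75 members. Replicate 2, which it weights most, is the array whose dyes the sources give differently. At an unadjusted p under 0.05 in limma the alternatives gave 0 to 6 of the 75 members, and 11 with array weights. The 6 members came without replicate 3, where 1223 of the 3964 kept probes had such a p. With array weights 1461 of the 3964 kept probes had one. The count over all kept probes, 27, was 1 after scaling between arrays (600 at an unadjusted p under 0.05), 16 with both channels above the flag, 0 with all gene probes kept (450 unadjusted), 0 with replicate 2 turned to the labels (29 unadjusted), 0 with a term for dye orientation (348 unadjusted), and 4 to 470 when 1 array was left out: 26 without replicate 1, 4 without replicate 2 and 470 without replicate 3. The cause was not tested.

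The median log2 ratio moved by more than 1 SD to -0.22 for the large and -0.16 for the small subunit from intensities with loess, and to -0.22 and -0.14 from the plain quotient. Large minus small moved to -0.056 with loess and -0.046 with replicate 2 turned. Leaving out 1 array gave -0.14 to -0.05 for the large subunit, -0.07 to 0.04 for the small and -0.10 to -0.07 for the difference. Members at the higher flag level alone gave -0.07, 0.01 and -0.08, and 1 gene per protein name gave -0.09, 0.01 and -0.10, both chosen after seeing the data. For the 26 named members, 356 of the recomputed values stayed within 1 SD or on the same side of the threshold, 29 moved by more and 4 gained a call. No paired analysis was possible because there is 1 group of arrays, each of which already sets a phoxim RNA against its control.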
